A study of Mus musculus with 219 samples.

Results

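The 7 genes described here are Tank, Trappc2, Triqk, Vta1, Bri3, Lypla1 and Atp6v1h, out of the 32285 genes in the count tables of this study. They were selected on the outcome, as genes with large changes between polar and equatorial sperm deposition in 2-cell mouse embryos, and each was found by its symbol in the tables of blastomeres and of blastocysts. Their own polar against equatorial values in 2-cell embryos are therefore given as a description without a test, and the tests concern other measures. Of these, the sister differences and the comparison of the polar groups come from the same 2-cell embryos and are not independent of the choice. Blastocysts are embryos that the choice did not use.

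Oocytes of B6C3F1 females, arrested with their meiotic spindle at the animal pole, each received a single CD1 sperm head by intracytoplasmic sperm injection (ICSI). The head was deposited opposite the spindle (contralateral, Co, at the vegetal pole), beside the spindle (ipsilateral, Is, called isolateral in the labels) or midway between the poles (equatorial, Eq). All groups therefore share the cross B6C3F1xCD1, cryopreserved sperm of 1 batch and culture in KSOM medium, and there was no group fertilized without ICSI among the libraries used here. Blastomeres of 2-cell embryos were separated and sequenced singly as full-length cDNA, giving 55 complete pairs of sisters, of which 21 were Co, 21 Is and 13 Eq. Blastocysts were sequenced whole, either as twins that grew from the separated sisters of 1 embryo (6 Co, 7 Is and 6 Eq pairs) or as intact blastocysts that were never divided (11 Co, 8 Is and 12 Eq). The plates of the labels were unevenly filled, with 18 Co, 13 Is and 11 Eq pairs on plate 1 and 3 Co, 8 Is and 2 Eq pairs on plate 2. The column labels of blastomeres also give wells, and each plate row held a single ICSI group. Differences between plate rows and between ICSI groups therefore cannot be told apart. Total counts ran from 360474 to 2100561 per blastomere, from 713410 to 2161062 per twin blastocyst and from 234099 to 1254428 per intact blastocyst. The summed level of 5 oocyte and 2-cell markers (Gdf9, Bmp15, Zp3, Dppa3 and Zscan4d) had group medians of 3178, 3075 and 2918 counts scaled to a common library total (CPM) in Co, Is and Eq 2-cell embryos. The single markers did not share a direction. Zscan4d had medians of 226, 196 and 88.4 CPM in Co, Is and Eq, and Dppa3 and Bmp15 were also lowest in Eq. Gdf9 was highest in Eq, with medians of 285, 289 and 345 CPM, and Zp3 was lowest in Co. Whether the groups differed in stage was not tested. The sum of Cdx2, Krt8 and Krt18, which mark trophectoderm, lay between 1769 and 2558 CPM in the blastocyst groups. Of the 5 markers of cumulus cells, the somatic cells that surround the oocyte, Amh was at 0 in every 2-cell embryo. Tnfaip6 was at 0 in only 7 of 21 Co, 6 of 21 Is and 4 of 13 Eq embryos and reached 37.1 CPM in Co. Has2 was at 0 in 13 of 21, 8 of 21 and 7 of 13 embryos, and Ptx3 and Fshr were at 0 in most. The summed medians of the 5 markers were 7.62 CPM in Co, 6.50 CPM in Is and 5.69 CPM in Eq embryos.

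A 2-cell mouse embryo carries RNA that the oocyte stored, which is being degraded, together with the first transcripts of its own genome, so that the level of a gene reflects storage, decay and new synthesis at once. A level in CPM is also a share of the library, so that less RNA of a gene and more RNA of other genes cannot be told apart. Most of the 7 genes act on membranes and vesicles. Tank binds TRAF proteins and the kinase Tbk1 in innate immune signalling. Trappc2 belongs to the TRAPP complex, which tethers vesicles between the endoplasmic reticulum and the Golgi apparatus, and Vta1 is the cofactor of the ATPase Vps4, which disassembles the ESCRT machinery that sorts proteins into multivesicular bodies. Atp6v1h is the H subunit of the proton pump that acidifies lysosomes, Bri3 is a small protein of lysosomal membranes, Lypla1 is a thioesterase that removes palmitate from proteins, and Triqk is a small protein of the endoplasmic reticulum membrane.

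The genes lie on 6 chromosomes and do not form a cluster. In GRCm38, Tank (ENSMUSG00000064289) spans chr2:61578585-61654171 on the plus strand, Trappc2 (ENSMUSG00000079317) chrX:166440574-166453140 plus, Triqk (ENSMUSG00000055963) chr4:12906838-12983553 plus and Vta1 (ENSMUSG00000019868) chr10:14654755-14705560 minus. Bri3 (ENSMUSG00000047843) spans chr5:144244437-144446757 plus, Lypla1 (ENSMUSG00000025903) chr1:4807788-4848410 plus and Atp6v1h (ENSMUSG00000033793) chr1:5070018-5162529 plus, with the last pair on the same chromosome. Reads were counted without strand, and exons of 5 of the genes overlap another gene. Vta1 shares 306 exonic bases with the antisense gene Gm16234, and Bri3 shares 179 with the antisense gene 2900089D17Rik and 49 with Baiap2l1. Trappc2 and Ofd1, and Atp6v1h and Rgs20, also share part of their exons on opposite strands. Lypla1 shares 629 exonic bases on its own strand with Gm37988, which is not among the genes of the count tables. Reads from the stretches shared with counted genes cannot be assigned to either gene.

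The promoter windows shown are those of the genes with the 3 largest increases and of Bri3, the only member that was lower. Only these members had a matched RefSeq promoter, and the base composition of their windows differs widely. Each window holds the 250 bases up to the RefSeq transcription start (GRCm38.p6) and is written 5′ to 3′ along the gene's own strand. Tank had 4 such windows and Bri3 had 2, of which 1 each is printed, and other windows could differ in composition. The Bri3 window lies inside the gene span given above, and the Trappc2 and Vta1 windows reach past the annotated gene start. Capitals mark the GC box, searched as GGGCGG and its reverse complement CCGCCC. RefSeq promoters were matched for these 4 of the 7 members, and Triqk, Lypla1 and Atp6v1h are named only.
Tank, chr2:61578336-61578585 plus: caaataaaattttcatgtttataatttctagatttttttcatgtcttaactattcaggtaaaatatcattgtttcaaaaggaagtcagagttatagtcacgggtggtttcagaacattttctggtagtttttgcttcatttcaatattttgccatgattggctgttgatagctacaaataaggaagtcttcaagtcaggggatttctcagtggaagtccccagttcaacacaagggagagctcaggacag
Trappc2, chrX:166440505-166440754 plus: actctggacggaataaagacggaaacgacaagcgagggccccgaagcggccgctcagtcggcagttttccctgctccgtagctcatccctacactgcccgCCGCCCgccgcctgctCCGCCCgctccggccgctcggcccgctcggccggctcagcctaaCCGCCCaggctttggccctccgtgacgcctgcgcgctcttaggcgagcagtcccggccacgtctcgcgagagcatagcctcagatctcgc
Vta1, chr10:14705490-14705739 minus: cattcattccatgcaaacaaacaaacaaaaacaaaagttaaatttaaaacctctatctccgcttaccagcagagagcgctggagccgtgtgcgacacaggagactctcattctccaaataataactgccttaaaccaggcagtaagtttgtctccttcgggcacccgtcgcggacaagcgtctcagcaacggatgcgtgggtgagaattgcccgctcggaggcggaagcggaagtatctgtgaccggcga
Bri3, chr5:144254975-144255224 plus: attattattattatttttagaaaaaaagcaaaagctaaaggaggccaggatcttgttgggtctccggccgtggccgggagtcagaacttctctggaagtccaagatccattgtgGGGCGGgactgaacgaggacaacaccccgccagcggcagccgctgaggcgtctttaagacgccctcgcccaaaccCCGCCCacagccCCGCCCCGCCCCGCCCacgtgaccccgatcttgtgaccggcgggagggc
The windows did not share a composition. The Tank window had 35.2% G and C, with 0 GC boxes, 1 CCAAT (or ATTGG) and 1 TATAAA (or TTTATA). The Trappc2 window had 69.2% and 3 GC boxes, the Vta1 window 50.4% and 0 GC boxes, and the Bri3 window 59.6% and 5 GC boxes, some of which overlap each other. The Bri3 window also held 1 CACGTG, the E-box of lysosomal gene promoters, overlapping the last GC box, and none of the 4 windows held CCGGAAG or CTTCCGG, the core of ETS sites. Over all 32817 RefSeq windows of the same length, the median was 52.4% G and C, and 32.7% held a GC box, 33.8% CCAAT, 12.4% TATAAA, 6.02% CACGTG and 6.90% CCGGAAG, on either strand. These matches describe letters and not binding.

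In 2-cell embryos, with the counts of both sisters added, 6 members were higher and Bri3 was lower after polar ICSI. The median of Tank was 172 CPM in Co embryos (lowest 52.1, highest 243) and 157 CPM in Is embryos (84.6 to 270.1), against 73.4 CPM in Eq embryos (29.2 to 110.5). These medians stood at 2.34 times (Co) and 2.14 times (Is) the Eq median, and 17 of 21 Co and 19 of 21 Is embryos lay above every Eq embryo. The fitted log2 fold change against Eq, with its standard error, was 1.25 ± 0.17 for Co and 1.20 ± 0.17 for Is.

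Trappc2 was the member with the largest ratio among Co embryos after Vta1. Its median was 331 CPM in Co (118.8 to 487), 271 CPM in Is (189 to 419) and 137 CPM in Eq embryos (53.3 to 271), ratios of 2.42 and 1.98. Of the Co embryos 18 lay above every Eq embryo, but only 10 of the Is embryos did. The log2 fold changes were 1.24 ± 0.16 (Co) and 0.91 ± 0.15 (Is).

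Vta1 had the largest ratios of medians of the 7 genes in both polar groups, 2.68 in Co and 2.39 in Is. Its levels were 204 CPM in Co (64.3 to 335), 182 CPM in Is (118.8 to 258) and 76.1 CPM in Eq embryos (39.03 to 177). The Eq range reached further into the polar ones here, and 13 Co and 12 Is embryos lay above it. The log2 fold changes were 1.21 ± 0.17 and 1.06 ± 0.17.

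Triqk moved less but with less spread. It had medians of 153 CPM in Co (99.6 to 235), 142 CPM in Is (74.5 to 189) and 83.8 CPM in Eq embryos (60.1 to 116.04), ratios of 1.82 and 1.70. Above the Eq range were 17 Co and 16 Is embryos, and the log2 fold changes were 0.89 ± 0.12 and 0.70 ± 0.13.

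Bri3 moved the other way. Its median was 184 CPM in Co (121.98 to 479.5) and 183 CPM in Is embryos (134 to 305), against 324 CPM in Eq embryos (251 to 559), ratios of 0.567 and 0.564. Below every Eq embryo were 17 of 21 Co and 19 of 21 Is embryos, and the log2 fold changes were −0.78 ± 0.14 and −0.90 ± 0.14.

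Lypla1 and Atp6v1h, which encode the thioesterase and the proton pump subunit, had the smallest fitted changes of the members. Atp6v1h overlapped most between the groups, and Lypla1 overlapped about as much as Vta1. Lypla1 had medians of 98.7 CPM in Co (34.3 to 140.5), 96.7 CPM in Is (48.1 to 125.8) and 54.5 CPM in Eq embryos (27.9 to 94.9), with 12 of 21 embryos of each polar group above the Eq range and log2 fold changes of 0.73 ± 0.15 and 0.69 ± 0.15. Atp6v1h had medians of 151 CPM in Co (67.98 to 219), 134 CPM in Is (68.4 to 179) and 112 CPM in Eq embryos (41.2 to 161). Only 7 Co and 3 Is embryos lay above its Eq range, and its log2 fold changes were 0.59 ± 0.16 and 0.31 ± 0.16. No Eq embryo passed the median of the 42 polar embryos, in the direction of the polar groups, for the other 6 members, whereas 3 Eq embryos did for Atp6v1h. The members were chosen on these levels, and other genes were not examined in this way. Nothing particular to the members is therefore read from such counts of separation.

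**Figure D1:**
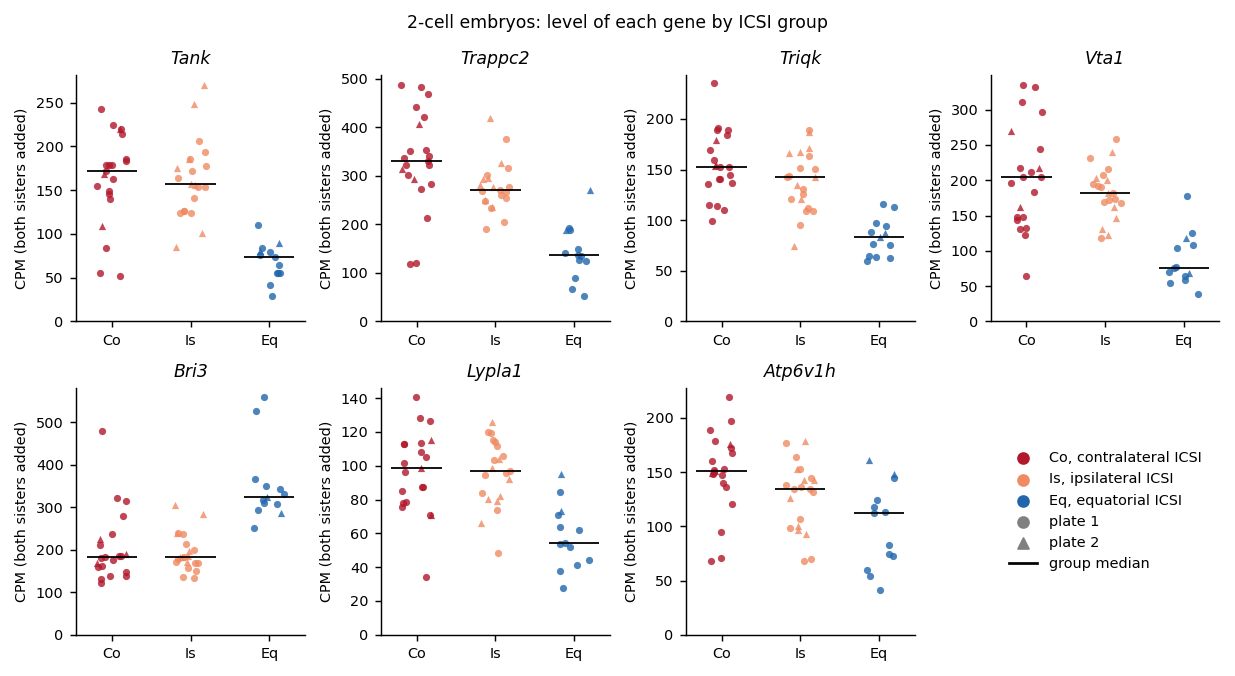
Level of each member in CPM (vertical axis, counts of both sisters added) in 2-cell embryos by ICSI group, 1 point per embryo with its plate as the marker shape and the group median as a line. Above all 13 Eq embryos lie 17 Co and 19 Is embryos for Tank, 18 and 10 for Trappc2, and 17 and 16 for Triqk. For Vta1 these are 13 and 12, and for Lypla1 12 and 12. Bri3 is lower after polar ICSI, and Atp6v1h overlaps most, with 7 of 21 Co and 3 of 21 Is embryos above all Eq embryos.

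Per length, on the scale of transcripts (TPM), the order of the members' levels in Co embryos was Bri3 (median 351 TPM), Trappc2 (294), Vta1 (280), Triqk (136), Tank (88.5), Atp6v1h (50.2) and Lypla1 (44.1). The length used was the union of all exons of a gene, and the order could differ with another length. For Tank this union is 6096 bases and the longest transcript 2698, while for Triqk they are 3568 and 3545. Neighbours in this order overlapped in their ranges, for example Atp6v1h (22.4 to 70.4 TPM) and Lypla1 (19.1 to 61.4 TPM). In Eq embryos Bri3 stood further ahead, at a median of 722 TPM against 130.5 TPM for Trappc2 and 101.2 TPM for Vta1.

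The members were chosen on these contrasts, so their places in the order of p are a description and no support for the choice. Lypla1 and Atp6v1h were placed behind the other 5 members. In the Co against Eq contrast Trappc2, Tank, Triqk and Vta1 were ranked 1, 2, 3 and 4 of 13141 genes, Bri3 69, Lypla1 222 and Atp6v1h 730. In the Is against Eq contrast Tank, Bri3 and Vta1 were ranked 1, 2 and 3, Trappc2 9, Triqk 20 and Atp6v1h 2596, with Lypla1 between the last 2. By size alone none stood near the top, since the largest, Tank in Co, was at place 838 by absolute log2 fold change. In the background, 7.12% of the genes tested were called higher and 6.06% lower in Co than in Eq embryos, and 3.43% and 3.22% in Is embryos, by edgeR at an adjusted p under 0.05; nothing is read from these shares about the members. The first genes outside the members in these orders were Hprt, the purine salvage enzyme, with 0.96 ± 0.14 in Co, and Ighg2b, with 0.97 ± 0.16 in Is (log2 fold changes).

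The polar groups were not uniform. For 2 Co embryos and 1 Is embryo, the values of all 7 members fell inside the range of the Eq embryos, and for 6 Co embryos and 1 Is embryo no member did. The Co embryo numbered 12 held the lowest Co values of Tank, Trappc2, Vta1, Lypla1 and Atp6v1h and the highest of Bri3. Its Tank level of 52.1 CPM and its Bri3 level of 479.5 CPM were on the Eq side for both genes. Co embryos of plate 1 lay in well rows A to C and, apart from these, in row J beyond the Eq rows. In row J, embryos 47, 48, 49 and 50 had 5, 3, 7 and 5 members inside the Eq range. Those of rows A to C had 0 to 3, apart from embryo 12. The part of well position was not tested.

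The plates differed in how far some members moved. On plate 1 the log2 fold changes of Co and Is against Eq were 1.33 and 1.26 for Tank, 1.41 and 1.07 for Trappc2, 0.91 and 0.70 for Triqk, 1.24 and 1.13 for Vta1, −0.77 and −1.01 for Bri3, 0.87 and 0.87 for Lypla1, and 0.74 and 0.50 for Atp6v1h. On plate 2, which holds only 2 Eq embryos, Tank (0.98 and 1.02), Triqk (0.94 and 0.77), Vta1 (1.23 and 0.91) and Bri3 (−0.63 and −0.47) kept their directions at a similar size or smaller. Trappc2 was at 0.57 and 0.37, Lypla1 at 0.19 and 0.12, and Atp6v1h at 0.05 and −0.25 there. The 2 Eq embryos of plate 2 had 149 and 161 CPM of Atp6v1h, above all 11 Eq embryos of plate 1 (41.2 to 145 CPM).

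The 6 higher members lay low in GC content among the genes tested, from percentile 0.70 (Triqk) to 27.7 (Vta1), and Bri3 lay at percentile 94.0. The members were chosen on a change that itself ran with GC content across genes, so this is not read as particular to them. The longest annotated transcripts of the 6 higher members had 35.9% (Triqk), 37.6% (Atp6v1h), 38.4% (Tank), 39.9% (Lypla1), 41.6% (Trappc2) and 44.7% (Vta1) G and C, all under the median of 48.5% over the genes tested, and Bri3 had 58.3%. Across all genes the same direction was seen. Genes higher after polar ICSI had a median of 43.98% and lower ones 52.6%, and the median log2 fold change fell from 0.29 in the decile of genes with the lowest GC content to −0.39 in the decile with the highest. The Spearman correlation of the polar log2 fold change with GC content was −0.36 and with transcript length −0.26 across genes, which are not independent replicates.

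Each embryo's deviation along GC content was also taken out with offsets, an alternative added after the data were seen. With these offsets, 6 members kept part of their differences in both polar groups, and Atp6v1h kept little or none. The log2 fold changes of Co and Is were then 0.85 and 0.86 for Tank, 1.00 and 0.70 for Trappc2, 0.49 and 0.34 for Triqk, 1.03 and 0.89 for Vta1, and −0.45 and −0.67 for Bri3. Those of Lypla1 were 0.44 and 0.44, and those of Atp6v1h 0.20 and −0.02. With offsets for transcript length as well, Bri3, whose transcript of 955 bases is short, was at −1.05 and −1.22, Atp6v1h at 0.35 and 0.10, and the other 5 members at 0.42 to 0.96 in both polar groups.

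**Figure D2:**
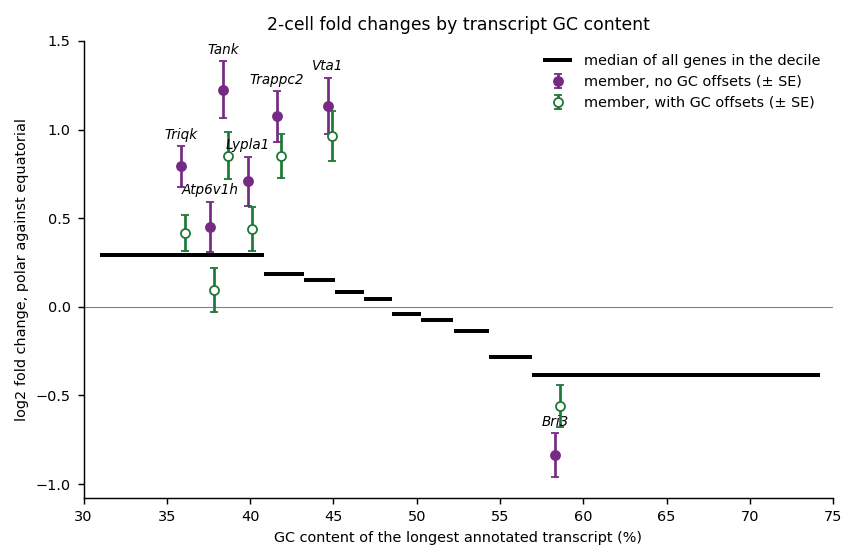
Log2 fold change of polar against equatorial 2-cell embryos (vertical axis) by GC content of the longest transcript in percent (horizontal axis). Bars are the medians of all genes in each decile of GC content, filled points the members and open points the same members with GC offsets, with standard errors. The medians run from 0.29 to −0.39, and the filled points of Tank, Trappc2 and Vta1 lie furthest above them. Bars come from the fit without offsets, so the open points are not to be read against them.

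The GC slope of an embryo, the change of log2 level per 10 points of GC content across genes relative to the average embryo, differed between the groups as well. It had a median of −0.08 in Co (−0.45 to 0.35), −0.06 in Is (−0.21 to 0.20) and 0.29 in Eq embryos (−0.03 to 0.39). With group and plate means removed, the Spearman correlations with this slope over the 55 embryos were −0.68 for Tank, −0.69 for Trappc2, −0.55 for Triqk, −0.57 for Vta1, 0.58 for Bri3, −0.37 for Lypla1 and −0.45 for Atp6v1h. Member and slope come from the same libraries, and the part of base composition in the differences between ICSI groups was not tested. Over 110 blastomeres, each a library of its own, the correlation of a member with the slope of its own library was −0.68 for Tank, −0.74 for Trappc2 and 0.54 for Bri3, and with the slope of its sister's library −0.07, −0.22 and 0.07. For Triqk, Vta1, Lypla1 and Atp6v1h the correlations were between −0.56 and −0.29 with the own slope and between −0.25 and −0.04 with the sister's. The part of the library in these correlations was not tested.

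Depth also differed between the groups. Eq embryos held 1255481 to 3030763 counts against 1590166 to 3535915 in Co and 1854034 to 3976094 in Is embryos, and a median of 11393 detected genes per blastomere against 12073 and 12103. Within groups and plates, Bri3 fell with the log2 total count (Spearman −0.55) and with the number of detected genes (−0.54, n = 55 embryos). The other 6 members had correlations of 0.15 to 0.37 with the total and of 0.02 to 0.24 with detected genes. With both measures in the model, Bri3 was at −0.54 in Co and −0.48 in Is embryos, while Tank (1.16 and 1.03), Trappc2 (1.20 and 0.85) and Vta1 (1.11 and 0.90) moved little. Values of Triqk, Lypla1 and Atp6v1h with both measures are not listed, and the members named do not stand for them. Over all genes, edgeR with both measures called 1067 genes in Co and 51 in Is against Eq, compared with 1733 and 874 without them. The share of mitochondrial counts, with medians of 1.61% in Co, 1.497% in Is and 1.24% in Eq embryos, correlated with the members within groups at 0.11 to 0.33.

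The members varied together within the groups. After the mean of each ICSI group and plate was subtracted, all 15 pairs of the 6 higher members had a positive Spearman correlation over the 55 embryos (0.27 to 0.64, median 0.41), and Bri3 was negatively correlated with each of the 6 (−0.63 to −0.24, median −0.48). The same held for genes measured in the same blastomere, at 0.22 to 0.61 for pairs of higher members (median 0.37) and −0.63 to −0.35 for Bri3. When 1 gene was read in a blastomere and the other in its sister, the correlations were −0.07 to 0.24 (median 0.05) and −0.09 to 0.10. The highest value across sisters (0.24, Trappc2 with Vta1) exceeded the lowest value of a pair within a blastomere (0.22). Points of the same library share its depth and its GC slope. Pairs of other genes were not examined in this way, so nothing particular to the members is read from these correlations.

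**Figure D3:**
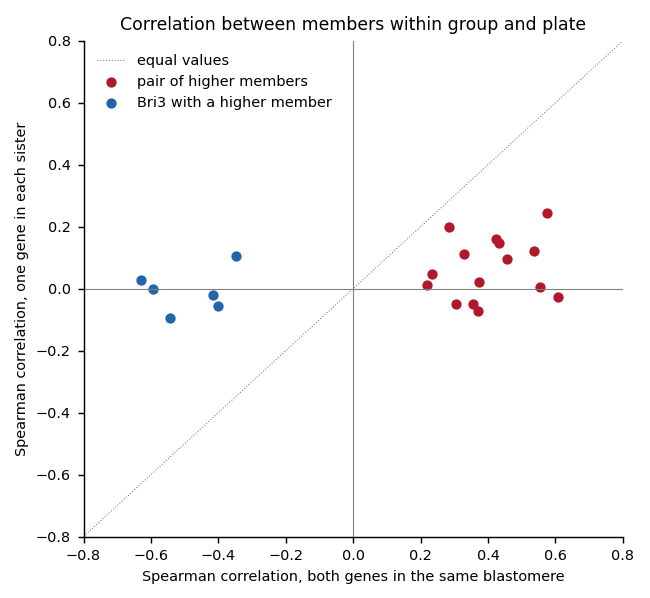
Spearman correlation of each pair of members with both genes read in the same blastomere (horizontal axis) and with 1 gene read in each sister (vertical axis), after group and plate means were subtracted. Pairs of higher members lie at 0.22 to 0.61 on the horizontal axis and at −0.07 to 0.24 on the vertical one, and pairs with Bri3 lie at −0.63 to −0.35 and at −0.09 to 0.10.

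For each member the 2 most similar genes were taken by Spearman correlation over the 55 embryos within group and plate, among 13140 genes. Trappc2 was most like Mad2l1 (0.85), a spindle checkpoint protein, and Obox1 (0.81), a homeobox gene of oocytes, and Vta1 was most like Dazl (0.80), a germ cell RNA-binding protein, and Eif2b1 (0.76), a translation initiation factor subunit. Bri3 was most like Sap30l (0.84) and Fam241b (0.84). Tank was most like Gm21411 (0.75) and Phf6 (0.67), and Triqk was most like Pex13 (0.63), a peroxisomal import protein, and H3f3a (0.61), which encodes histone H3.3. Lypla1 had the weakest neighbours, Gm364 (0.56) and Gm20362 (0.54), and Atp6v1h those in between, Tex12 (0.61) and Ccdc90b (0.60). These are descriptions over libraries that share depth and composition.

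Sister blastomeres were no closer to each other than the group for some members and somewhat closer for others. The intraclass correlation of sisters within group and plate, which is 1 for identical sisters and 0 for sisters no more alike than other blastomeres, was 0.29 for Atp6v1h, 0.23 for Trappc2, 0.21 for Vta1, 0.20 for Bri3, 0.04 for Triqk, −0.14 for Lypla1 and −0.21 for Tank (55 pairs). The median over all genes was 0.083, and the GC slope of the library had 0.42. These pooled values join groups that were unlike. In Co, Is and Eq pairs taken apart, the correlation was 0.48, 0.054 and −0.039 for Trappc2, 0.57, 0.016 and −0.015 for Vta1 and 0.48, −0.029 and −0.16 for Bri3, with the highest value of each in Co pairs. For Tank it was −0.011, 0.0075 and −0.71 and for Lypla1 0.12, 0.072 and −0.57, with the negative values in the 13 Eq pairs. Atp6v1h had 0.42, 0.10 and 0.35, and Triqk 0.26, 0.034 and −0.15. The differences between groups in these correlations were not tested.

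The distance between sisters was described for each member, with the limit that it is not independent of the selection. The members that were higher after polar ICSI have few counts in Eq embryos, with a median per blastomere of 57.5 for Lypla1 against 129.5 in Co and 149.5 in Is, and of 87.5 for Vta1 against 283.5 and 264, and the part of these low counts in the distance was not tested. The median absolute difference of log2(CPM + 1) between sisters was 0.35 in Co and 0.31 in Is pairs for Lypla1, against 1.22 in Eq pairs, where 9 of 13 pairs differed by at least 2-fold and 2 pairs by less than 1.5-fold. For example, the sisters of Eq embryo 67 had 22.2 and 143 CPM of Lypla1, and those of Eq embryo 41 had 102.4 and 22.02 CPM. For Vta1 the medians were 0.32 in Co, 0.40 in Is and 0.87 in Eq pairs, where 6 of 13 differed by at least 2-fold. Blastomeres of different Eq embryos differed by a median of 0.86 for Lypla1 and 0.94 for Vta1.

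In limma, on the log2 scale with Benjamini-Hochberg adjustment over 11712 genes, the estimate of polar minus Eq was −0.79 ± 0.21 for Lypla1 and −0.58 ± 0.16 for Vta1, the 2 of 7 members past the threshold (adjusted p = 0.043 and 0.044). In the background, 1.13% of the genes were called lower in this direction, and the median over all genes was −0.10. For the other 5 members the estimate was −0.57 for Tank, −0.38 for Trappc2, −0.23 for Triqk, −0.17 for Bri3 and −0.06 for Atp6v1h. Both calls were lost on plate 1, under the mitochondrial limit, with every gene counted and with all 62 pairs, where Vta1 turned to 0.10. Over all alternatives the adjusted p in limma ran from 0.0453 to 0.570 for Lypla1 and from 0.0158 to 0.986 for Vta1. Since the members were chosen for their levels in the same blastomeres, these calls are given as a description. Every blastomere had at least 3 counts of every member.

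**Figure D4:**
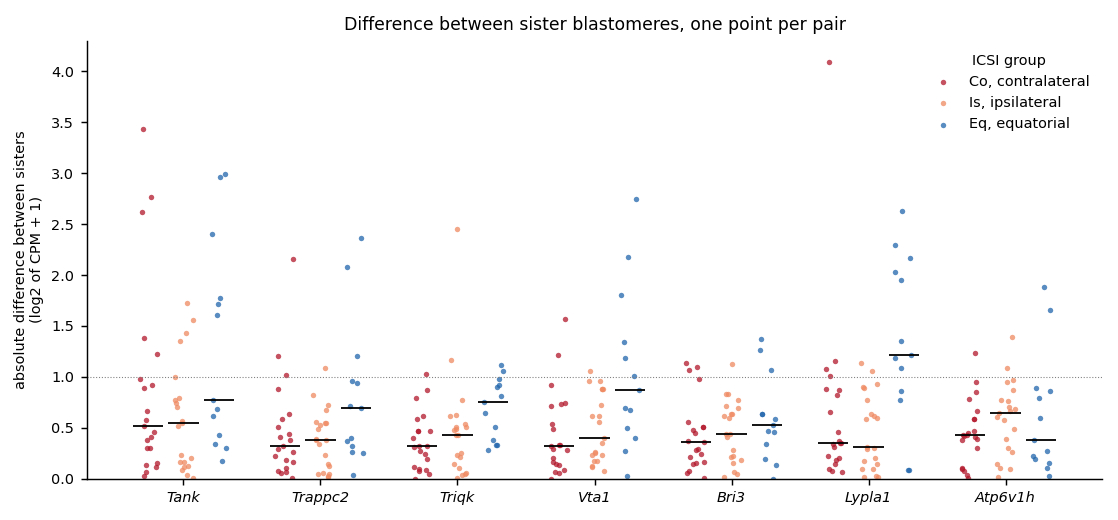
Absolute difference between sister blastomeres in log2(CPM + 1) (vertical axis) for each member and ICSI group, 1 point per pair with the group median as a line; the dotted line marks a 2-fold difference. The Eq medians are 1.22 for Lypla1 and 0.87 for Vta1, against 0.31 to 0.40 in the polar groups.

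The polar groups were compared with each other, a contrast that the selection did not use directly. The same Co and Is embryos entered the choice, which can favour genes that are high in 1 of these groups. The differences between Co and Is are given with that limit. By edgeR with Benjamini-Hochberg adjustment, 0 of the 7 members and 0% of the 13141 genes were called between Co and Is embryos. At an unadjusted p under 0.05 there were 2 members and 555 genes, and DESeq2 also called 0 of both. With every gene that had a count in the fit, 1577 of 24964 genes were called but again 0 members, with an adjusted p of 0.137 for Trappc2. The members at an unadjusted p under 0.05 were Trappc2, higher in Co by 0.34 ± 0.13 on the log2 scale (95% interval 0.07 to 0.60), and Atp6v1h, by 0.28 ± 0.14 (0.01 to 0.56), both with an adjusted p of 1. For the other 5 members the difference was between 0.04 (Lypla1, −0.22 to 0.30) and 0.19 (Triqk, −0.02 to 0.41), intervals that leave room for differences in either direction. A permutation rank-sum test on TPM gave an unadjusted p of 0.00726 for Trappc2 and 0.0225 for Atp6v1h.

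Genes that work with the members were examined in 6 lists, without the members themselves. Of all such genes tested, 10 were higher (9.26%) and 8 lower (7.41%) in Co than in Eq embryos, and 4 were higher (3.70%) and 2 lower (1.85%) in Is embryos, by edgeR at an adjusted p under 0.05. These shares are near those over all genes, 7.12% and 6.06% in Co and 3.43% and 3.22% in Is, and nothing particular to the lists is read from them. The calls also depended on the setting, since 12 list genes were called in Co and 0 in Is with depth covariates, 12 and 6 with GC offsets, 2 and 2 with GC and length offsets, and 0 and 0 on plate 2 alone. The median log2 fold change of the lists together was −0.01 in Co and 0.09 in Is, against 0.00 and 0.01 over all genes. In the TRAPP complex, 2 of 14 partners of Trappc2 (14.3%) rose in both polar groups, against 7.12% and 3.43% of all genes, and 1 fell in Co (7.14%, against 6.06%). Trappc1, a core subunit, rose by 0.68 ± 0.17 in Co (adjusted p = 0.00446) and 0.66 ± 0.17 in Is (adjusted p = 0.0124), and Trappc3l by 0.76 ± 0.22 and 0.78 ± 0.22 (adjusted p = 0.0132 and 0.0195). The medians of this list were 0.18 in Co and 0.34 in Is.

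Of 25 ESCRT and Vps4 genes, in whose pathway Vta1 works, 3 rose and 3 fell in Co (12% each, against 7.12% and 6.06% of all genes) and 2 rose in Is (8%, against 3.43%). Chmp1b, an ESCRT-III subunit that binds Vps4, rose by 1.19 ± 0.26 in Co and 0.96 ± 0.27 in Is (adjusted p = 0.000997 and 0.0190), from a median of 17.2 CPM in Eq to 36.03 and 31.4 CPM. Chmp5, the ESCRT-III subunit that binds Vta1, rose by 0.62 ± 0.14 in Co (adjusted p = 0.000847) and stood at 0.36 ± 0.14 in Is (adjusted p = 0.0989). The median of the list was −0.15 in Co and −0.04 in Is, so that most of its genes did not follow Vta1.

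Of the 19 other proton pump genes, 4 rose in Co (21.1%, against 7.12% of all genes) and none passed in Is, where 3.43% of all genes were called higher. Atp6v1g1 rose by 0.82 ± 0.17 in Co (adjusted p = 0.000656) with 0.41 ± 0.17 in Is (adjusted p = 0.152), and Atp6v1f rose by 0.51 ± 0.14 in Co (adjusted p = 0.00616) with 0.38 ± 0.13 in Is (adjusted p = 0.0738). Both encode subunits of the same V1 sector as Atp6v1h. The difference between Co and Is was called for none of the list genes. The list medians were 0.10 and 0.09.

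Of 15 genes of Tank and Tbk1 signalling, none rose, 2 fell in Co (13.3%, against 6.06% of all genes) and none passed in Is. The list medians were −0.11 in Co and −0.014 in Is. Traf2, a TRAF protein, fell by 1.00 on the log2 scale in Co (SE 0.33, adjusted p = 0.0337), and Ticam1, the adaptor of Toll-like receptor 3, fell by 2.47 (SE 0.85, adjusted p = 0.0418) from an Eq median of 14.5 CPM, with a Co median of 0. Of 21 palmitoylation genes, 1 rose (4.76%) and 2 fell (9.52%) in Co and 2 fell in Is (9.52%), against 7.12%, 6.06% and 3.22% of all genes, and the list medians were −0.19 and −0.17. Ppt2, a lysosomal thioesterase, was at −0.98 ± 0.22 in Co and −1.34 ± 0.23 in Is (adjusted p = 0.00145 and 0.000235), and Zdhhc8, a palmitoyltransferase, at −0.91 ± 0.23 and −1.002 ± 0.240 (adjusted p = 0.00410 and 0.00571). None of 14 other lysosomal membrane genes was called, with list medians of 0.13 and 0.10.

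In blastocysts the differences between ICSI groups seen in 2-cell embryos were mostly not detected. Counts of blastocysts were normalized apart from those of 2-cell embryos, so levels at these stages are set side by side without a test. Triqk, at 83.8 to 153 CPM in the median of the 2-cell groups, was at 0 in 4 of 6 Co, 4 of 7 Is and 5 of 6 Eq twins and in 10 of 11 Co, 6 of 8 Is and 12 of 12 Eq intact blastocysts, and it was too low to pass the filter on low counts. An embryo at 0 counts allows up to 3 counts of its total, by counting error only. Tank was low as well, with medians of 15.2, 10.2 and 10.8 CPM in Co, Is and Eq twins and of 13.6, 26.1 and 20.5 CPM in intact blastocysts. Lypla1 (111.4 to 139 CPM in the group medians) and Atp6v1h (127.7 to 157 CPM) were at levels close to those of polar 2-cell embryos, and Vta1 lay at 95.4 to 110 CPM in twins and 49.6 to 83.3 CPM in intact blastocysts.

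By edgeR, 0 of the 6 members tested differed between polar and Eq twins, where 0% of 10689 genes were called (42 genes and 0 members at an unadjusted p under 0.05, and 0 genes by DESeq2). Among intact blastocysts 0 members were called, with 0.0187% of genes called (2 genes; 1111 genes and 1 member at an unadjusted p under 0.05; 78 genes and 0 members by DESeq2). More genes but still 0 members were called there with every gene that had a count (339 of 23034 genes) and with GC offsets (67 genes). Over all blastocysts 0 members and 0% of genes were called (420 genes and 0 members unadjusted, 0 genes by DESeq2, and 59 genes and 0 members with every gene that had a count), and the polar effect was called different between twins and intact blastocysts for 0 members and 0% of genes (204 genes and 0 members unadjusted, 0 genes by DESeq2).

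Trappc2 had the largest polar against Eq estimate of the 6 members in intact blastocysts, without its 2-cell order of groups. Its levels were 72.5 CPM in the median of Is (3.49 to 140), 20.8 CPM in Co (0 to 120) and 24.8 CPM in Eq embryos (0 to 54.3). Median counts were only 52.5, 8 and 17, and 2 of 11 Co and 2 of 12 Eq embryos were at 0. Of the Is embryos 7 of 8 lay above all 12 Eq embryos, the other being the lowest at 3.49 CPM, and 4 of 11 Co embryos did. The ratio of medians to Eq was 2.92 in Is and 0.840 in Co, whereas in 2-cell embryos Co had the higher ratio. By edgeR, Is against Eq was 1.71 ± 0.51 (adjusted p = 0.327) and Co against Eq 0.97 ± 0.48 (adjusted p = 0.375). The Co mean (42.5 CPM) was above the Eq mean (22.2 CPM), although the Co median was below the Eq median. The polar against Eq log2 fold change by edgeR was 1.34 ± 0.44 (95% interval 0.46 to 2.22, adjusted p = 0.218), which did not pass the threshold over all genes. Over the alternatives its adjusted p ran from 0.0773 to 0.905. In twins Trappc2 had medians of 47.2, 39.1 and 45.3 CPM in Co, Is and Eq, with a log2 fold change of 0.00 ± 0.53. The difference between these effects (−1.34 ± 0.68) was not called by edgeR at an adjusted p of 1.

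Bri3, lower after polar ICSI in 2-cell embryos, did not keep that direction in twins. It had medians of 70.5 CPM in Co (53.7 to 83.9), 73.9 CPM in Is (52.7 to 103) and 55.9 CPM in Eq twins (43.5 to 67.2), and 3 of 6 Co and 5 of 7 Is twins lay above all 6 Eq twins. The edgeR log2 fold change was 0.40 ± 0.29 (−0.17 to 0.97, adjusted p = 1), and an exact permutation rank-sum test on TPM gave an unadjusted p of 0.0365. In intact blastocysts the medians were 150.0 CPM in Co (59.4 to 291), 80.2 CPM in Is (56.1 to 162) and 123 CPM in Eq (76.7 to 391). Here the polar groups stood apart from each other, with Co higher than Is by 0.86 ± 0.28 on the log2 scale, which did not pass in edgeR (adjusted p = 0.205). Is against Eq was −0.74 ± 0.27 (adjusted p = 0.441).

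**Figure D5:**
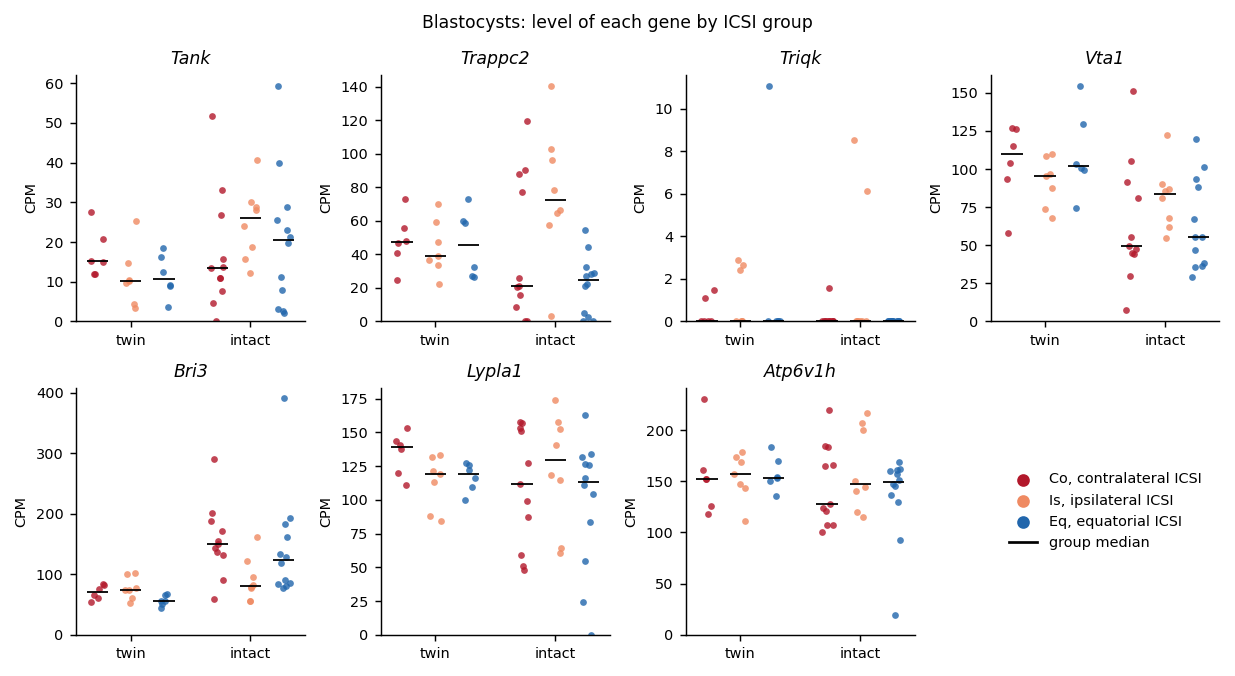
Level of each member in CPM (vertical axis) in twin blastocysts, with both twins of an embryo added, and in intact blastocysts, by ICSI group, 1 point per embryo with the group median as a line. Triqk is at or near 0 in nearly all embryos, Trappc2 is above all Eq embryos in 7 of 8 Is intact blastocysts, and Bri3 is higher in intact than in twin blastocysts.

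Twin and intact blastocysts differed for 2 of the 6 members tested. In this contrast 20.1% of all genes were called higher and 20.6% lower in twins, so 2 of 6 is near the background. Bri3 was lower in twins by edgeR (−0.996 ± 0.173, adjusted p = 4.19e-06) and Vta1 was higher (0.48 ± 0.18, adjusted p = 0.025). Tank was at −0.74 ± 0.32 (adjusted p = 0.0558), and Lypla1, Trappc2 and Atp6v1h were between 0.01 and 0.07. Twins are the sum of 2 libraries, and their depth (1676976 to 3095134 counts) lay above that of every intact blastocyst (234099 to 1254428 counts), while single twin libraries overlap them. Medians of Cdx2, Dppa3 and the inner cell mass sum were also higher in twins than in intact blastocysts. The part of such differences between the kinds of blastocyst was not tested. With every embryo thinned to the smallest total, Bri3 was at −1.07 (adjusted p = 6.97e-06) and Vta1 at 0.40 (adjusted p = 0.122). With depth covariates Bri3 was at 0.15 (adjusted p = 0.726), Vta1 at 0.76 (adjusted p = 0.114) and Trappc2 at −2.04 (adjusted p = 0.0203). Over all alternatives the adjusted p for these genes ran from 9.52e-08 to 0.726 for Bri3, from 0.00723 to 0.244 for Vta1 and from 0.0203 to 1 for Trappc2.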

How the data were processed

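After trimming with Trimmomatic 039 and cutting paired blastomere reads to 100 bases of read 1, the authors ran STAR 2.7.10b on GRCm38 without strand and deposited whole-number counts per gene, without normalization or molecular identifiers. Limits at a count of 0 cover counting error only, and intervals of fold changes come from the spread between embryos. Group, embryo, sister and plate came from the labels, and every column was mapped. Counts of sisters and of twins were added per embryo, CPM and TPM (union of exons, GENCODE M21) were computed, and counts were tested with edgeR 4.0.16 (quasi-likelihood, TMM, plate as a term for 2-cell embryos) and Benjamini-Hochberg adjustment over all genes tested, at a threshold of 0.05. Sister differences were tested with limma 3.58.1 on log2(CPM + 1). P-values measure the spread between embryos. The tests were checked on simulated counts. Of genes changed 2-fold, edgeR recovered 42.9% between Co and Is, 32.0% in polar against Eq twins, 48.0% in intact and 61.0% in all blastocysts. The limma fit recovered 35.6% of genes with a simulated difference between Eq sisters, which was set larger than 2-fold, so this share does not hold for a 2-fold difference. A lack of calls therefore does not show that a change is absent. Named are the members, the 2 genes most like each, up to 2 called genes of each list with the smallest p, and the first gene outside the members in each order of p. Alternatives were RLE factors, no filter, DESeq2 1.42.0, other covariates, plates and pairs, thinning, a pseudocount of 5 CPM and, added after the data were seen, offsets for GC content (20 bins) and length (10 bins) and plate 2 alone. The members and lists were chosen with earlier results of these data known. Pairs needed enough detected genes in both sisters, which left 55 of 62 pairs.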

Additional observations from a re-analysis of the deposited data

Results flagged for a closer look

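Triqk in the Eq twins had 1 embryo that stood apart: 11.04 CPM (30 counts, both twins added), while the other 5 Eq twin embryos were at 0. It was picked out because its gap to the nearest embryo was the whole range of the group. Of 28 groups of 4 to 10 embryos and members examined in this way, 1 had such an embryo, and chance gives about 1 in 20 for levels away from 0. With the other 5 embryos at 0, any count above 0 is picked out, so this rate does not apply here.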

How the results depend on the processing

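The 2-cell polar against Eq log2 fold changes of 6 members kept their direction under every alternative run, over 0.80 to 1.33 for Tank, 0.37 to 1.41 for Trappc2, 0.34 to 0.97 for Triqk, 0.75 to 1.30 for Vta1, −1.22 to −0.45 for Bri3 and 0.12 to 0.87 for Lypla1. Atp6v1h in Is embryos turned to −0.25 on plate 2 alone and to −0.019 with GC offsets. Where values turned, or counts of calls moved, the cause was not tested. Between Co and Is, values near 0 turned for Bri3 (−0.062 with depth covariates, −0.16 on plate 2, −9.17 TPM by medians), Lypla1 (−0.000592 on plate 1, −0.0090 with GC offsets, −0.514 TPM by medians) and Tank (−0.045 on plate 2, −0.014 with GC offsets, −0.026 with GC and length offsets), and the unadjusted rank-sum test called 2 members.
List genes called in Is embryos were 12 by DESeq2, 0 with depth covariates, 0 on plate 2, 10 with all 62 pairs and 2 with GC and length offsets, and in Co embryos 0 on plate 2 and 2 with GC and length offsets. GC offsets left 1475 genes called in Co (1733 without) and 739 in Is (874 without), and GC and length offsets 936 and 578. Sister differences were called for 1 member with a pseudocount of 5, with no plate term or with thinning, and for 0 on plate 1, under the mitochondrial limit, with all 62 pairs or with every gene counted. With all 62 pairs Vta1 turned to 0.10 and Atp6v1h to 0.29.
In twins Atp6v1h turned to 0.017 and Trappc2 to 0.10 with depth covariates, Vta1 to 0.016 with thinning, Trappc2 to 0.0091 with twins alone, and by medians Atp6v1h to 1.30 TPM and Trappc2 to 0.0815 TPM, with 1 member called by the unadjusted rank-sum test. In intact blastocysts Tank turned to 0.21 with depth covariates, Atp6v1h to −0.058 with GC offsets and −4.09 TPM by medians, and Bri3 to 14.7 TPM by medians. Between twins and intact blastocysts 1 member was called with depth covariates, with thinning or with GC offsets. Depth covariates turned Lypla1 to −0.83, Atp6v1h to −0.19, Bri3 to 0.15 and Trappc2 to −2.04, and thinning turned Atp6v1h to −0.068. Of the intact blastocysts the shallowest held 234099 counts, which limits Triqk, Tank and Trappc2 most.
No paired analysis was made, because the groups compared share no embryo and the embryo numbers differ between ICSI groups. The study injected all sites on each ICSI day, but the labels do not give the day. Embryos of the same day were therefore treated as independent.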
